A study of Mus musculus with 4 samples.

Results

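The cells described here are 797 monocyte-rule cells of the mouse liver, selected on their own transcript counts among 30362 kept cells of 44974 barcodes in 4 single-cell RNA libraries. Their working name is monocytes and early monocyte-derived macrophages. Barcodes were kept when UMIs were seen for 500 to 6000 genes and no more than 10% of UMIs were mitochondrial, where a UMI (unique molecular identifier) stands for 1 captured transcript. A member had at least 5 summed UMIs of Ly6c2, Ccr2, F13a1, Chil3 and Vcan and at least 3 of Lyz2. It had 0 UMIs of Gpnmb, Siglech, Cd3e and Cd79a, at most 2 of Clec4f, Vsig4 and Timd4 together, and less than 2% of its UMIs from S100a8 and S100a9. The members numbered 97 in WT, 378 in YAPKO, 76 in TAZKO and 246 in DKO.

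Each library was made from the liver of 1 mouse, so that there is no replicate within a genotype: wildtype (WT), YAPKO, TAZKO, and the double knock-out DKO. In the knock-out mice, Cre recombinase driven by the albumin promoter (Alb-Cre) recombines floxed alleles of Yap, of Taz, or of both in hepatocytes and biliary cells, so that myeloid cells keep intact alleles in all 4 mice. The study sequenced these livers to look further into the YAP seen in endothelial and Kupffer cells after its loss in the parenchyma. Hepatocytes and non-parenchymal cells were isolated separately and mixed before loading, so that a share of cells also depends on the mixing, and the age of these 4 mice is not stated. The deposited matrices hold 66259687 UMIs in WT, 85989454 in YAPKO, 49022089 in TAZKO and 77411746 in DKO. Between 9 and 26 kept barcodes were shared by any pair of libraries, and 0 of the members' barcodes were.

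Monocytes are made in the bone marrow, circulate in the blood and enter tissues through chemokine receptors such as CCR2, the receptor for CCL2. Classical mouse monocytes carry Ly6C, while patrolling monocytes lose it and depend on the nuclear receptor NR4A1. In an injured liver, monocytes that have entered can turn on macrophage genes such as those of the complement component C1q, apolipoprotein E and lysosomal proteases, and can take the place of Kupffer cells, the resident macrophages.

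The targeted genes were measured first, also in hepatocyte-rule cells. These are kept cells with a minimum share of UMIs from Alb, Apoa1 and Ttr and no UMI of Ptprc. Whether other cells with free hepatocyte RNA are among them was not tested. Levels are given as CPM, the UMIs of a gene per 1000000 UMIs of the same cells, with exact 95% intervals in parentheses that cover counting error only. Yap1 (ENSMUSG00000053110, chromosome 9 of GRCm38, 7931999 to 8004596) had 21.5 CPM (19.4 to 23.7) in hepatocyte-rule cells of WT, 4.65 (3.64 to 5.86) in YAPKO, 47.7 (44.0 to 51.6) in TAZKO and 4.61 (3.87 to 5.45) in DKO. It was thus low in the hepatocytes of the 2 libraries labelled with its deletion. In the monocyte-rule cells Yap1 was represented by 3 UMIs in WT (2.43 CPM, 0.502 to 7.11), 33 in YAPKO (6.67, 4.59 to 9.37), 8 in TAZKO (11.5, 4.96 to 22.6) and 15 in DKO (6.74, 3.77 to 11.1). The interval of WT overlaps that of every other library, so that so few UMIs set no library apart. Wwtr1 (ENSMUSG00000027803), the gene for TAZ, lies on chromosome 3 from 57455649 to 57575910. It had 6.04 CPM (4.97 to 7.27) in hepatocyte-rule cells of WT, 13.5 (11.7 to 15.5) in YAPKO, 4.34 (3.28 to 5.62) in TAZKO and 2.92 (2.33 to 3.60) in DKO. The intervals of WT and TAZKO overlap, so Wwtr1 was below WT in the hepatocyte-rule cells of DKO but not set apart in those of TAZKO. The libraries were made with a 3′ kit, so these levels do not read the deletion itself. In the monocyte-rule cells Wwtr1 was above Yap1 in WT, YAPKO and DKO, while the intervals of TAZKO overlap: Wwtr1 had 16.2 CPM (9.91 to 25.1) in WT, 28.9 (24.4 to 34.0) in YAPKO, 23.0 (13.1 to 37.3) in TAZKO and 34.2 (26.9 to 42.8) in DKO. B cells, which here stand for the background of free RNA, held 8.59, 3.55, 6.20 and 18.9 CPM of Wwtr1 in the same order of libraries.

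Monocyte-rule cells made up 1.36% (1.10 to 1.65) of the kept cells in WT, 6.02% (5.45 to 6.64) in YAPKO, 0.880% (0.694 to 1.10) in TAZKO and 2.97% (2.61 to 3.35) in DKO. The share was high in both libraries with the Yap deletion and low in the other pair. Against cells with a UMI of the leukocyte gene Ptprc, the shares were 4.10% (3.33 to 4.998) in WT, 11.2% (10.1 to 12.3) in YAPKO, 2.31% (1.82 to 2.88) in TAZKO and 6.57% (5.79 to 7.42) in DKO. Per 100 Kupffer-rule cells there were 12.5 members in WT, 53.3 in YAPKO, 5.83 in TAZKO and 31.3 in DKO. The order of the libraries was the same with all 3 denominators.

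How far DKO lies above WT depends on how deeply cells were read and on which members are counted. Cells were thinned to 2000 UMIs, which left 5838 cells in WT, 5847 in YAPKO, 6357 in TAZKO and 7518 in DKO. The share of these was 0.617% (0.432 to 0.853) in WT, 2.65% (2.25 to 3.10) in YAPKO, 0.393% (0.255 to 0.580) in TAZKO and 0.678% (0.505 to 0.891) in DKO. YAPKO thus stayed high, while DKO lay within the interval of WT. With the limits of 500 and 6000 applied to UMIs in place of genes, 4 members remained in WT, 7 in YAPKO, 12 in TAZKO and 68 in DKO, and the shares were 0.0387%, 0.214%, 0.106% and 1.46%, with DKO highest. The median depth of members was 10272 UMIs in WT, 11494.5 in YAPKO, 7889 in TAZKO and 7247 in DKO, so that most members lie above that limit. At the threshold of the rule, 13 cells of WT, 16 of YAPKO, 10 of TAZKO and 35 of DKO met every other condition with a sum of 4 marker UMIs and stayed outside, while 5, 18, 10 and 47 entered with a sum of 5.

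**Figure D1:**
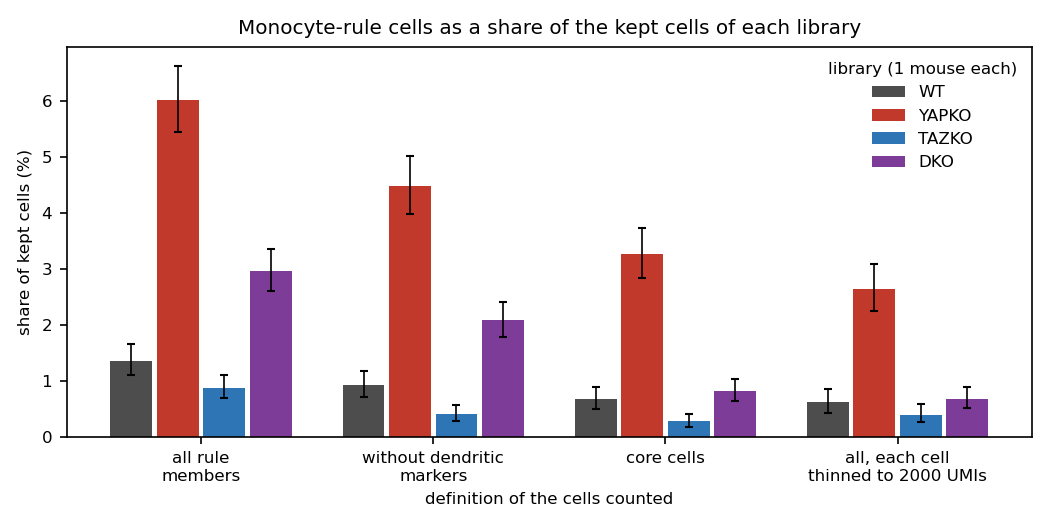
Share of kept cells (percent) in each library for all rule members, for members without dendritic cell markers and for core cells defined in the text. For all members after thinning to 2000 UMIs per cell, the share is of the cells left by thinning. Lines are exact 95% intervals for counting error. YAPKO is highest in every set, while DKO (2.97% of kept cells for all members) lies near WT among core cells (0.820%) and after thinning (0.678%).

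The levels of the genes used for selection are given as a description. Ly6c2, the Ly6C antigen of classical monocytes (chromosome 15, 75108158 to 75111970), had 764 CPM in WT, 448 in YAPKO, 719 in TAZKO and 213 in DKO. Ccr2 (chromosome 9, 124101950 to 124113557) was more even, with 625, 723, 844 and 792 CPM in the same order. F13a1, which encodes a subunit of coagulation factor XIII, had 208, 356, 123 and 147 CPM, and Chil3, a chitinase-like secreted protein, 757, 488, 134 and 146 CPM. Vcan, which encodes the matrix proteoglycan versican, had 87.6, 151, 23.0 and 25.2 CPM. Chil3 and Vcan had more CPM in members of WT and YAPKO than in those of TAZKO and DKO. Members entered on the sum of these genes, so no conclusion on the libraries is drawn from their levels.

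The rule does not select a single kind of cell, and the data go partly against the name of the set. Ly6c2, F13a1, Chil3 and Vcan together reached 5 UMIs in 49.2% of the 797 members, while 261 had 0 UMIs of all 4 genes and so entered on Ccr2 alone. Markers of dendritic cells (a UMI of Xcr1 or Clec9a, or at least 2 summed UMIs of Cd209a, Flt3 and Zbtb46) were carried by 242 members, and 119 of these had Xcr1 or Clec9a, which mark cross-presenting dendritic cells. At least 5 C1q UMIs (C1qa, C1qb and C1qc) were found in 246 members and at most 1 in 499. The members are therefore called monocyte-rule cells here and are split, without any test, into 4 classes. Core cells have at least 5 UMIs of the 4 genes and no dendritic markers, dendritic-marked cells have those markers, C1q-only cells have at least 5 C1q UMIs with neither of these features, and the rest have none of the 3.

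WT held 48 core, 11 C1q-only, 31 dendritic-marked and 7 remaining cells. YAPKO held 205, 58, 97 and 18 cells of these classes, TAZKO 24, 3, 41 and 8, and DKO 68, 54, 73 and 51. Core cells were thus 49.5% of the members in WT and 54.2% in YAPKO, but 31.6% in TAZKO and 27.6% in DKO. A core cell needs a fixed number of UMIs, whatever its depth. The median depth of members was 10272 UMIs in WT, 11494.5 in YAPKO, 7889 in TAZKO and 7247 in DKO, in the same order as these shares. The part of depth in the classes was not tested. TAZKO had the highest share of dendritic-marked cells (53.9%, 42.1 to 65.5, against 32.0%, 22.9 to 42.2, in WT). As a share of all kept cells, core cells were 0.671% (0.495 to 0.888) in WT, 3.27% (2.84 to 3.74) in YAPKO, 0.278% (0.178 to 0.413) in TAZKO and 0.820% (0.637 to 1.04) in DKO, and DKO then did not differ from WT beyond counting error. Without dendritic-marked members the shares were 0.922% (0.714 to 1.17), 4.48% (3.98 to 5.02), 0.405% (0.282 to 0.563) and 2.09% (1.79 to 2.42) in the same order.

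**Figure D2:**
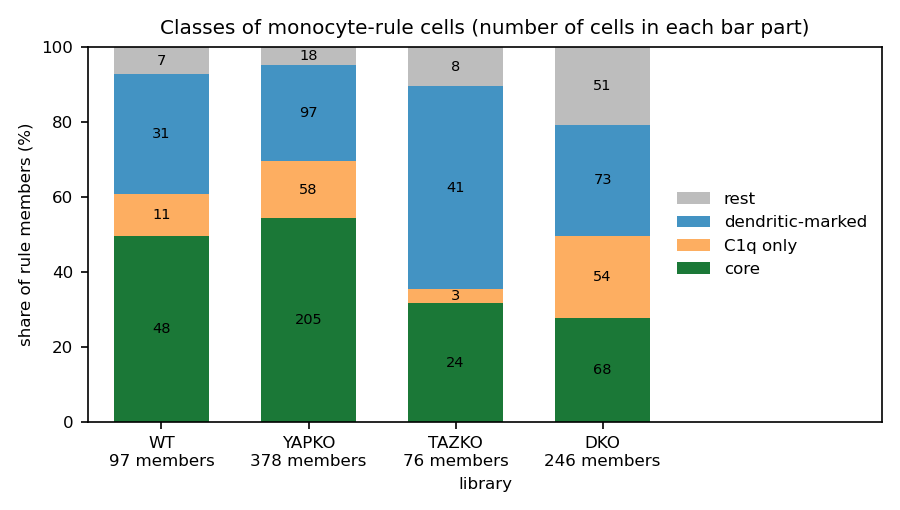
Classes of monocyte-rule cells in each library as a percentage of that library's members, with the number of cells written in each part of a bar. Core cells are 49.5% of members in WT and 54.2% in YAPKO, against 31.6% in TAZKO and 27.6% in DKO. Classes rest on fixed UMI counts, and the depth of members differed between libraries.

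The classes differed in genes that did not define them. Over the 4 libraries, Plac8 was high in core cells (4086 CPM) and in the rest (4125 CPM), and lower in C1q-only (1097 CPM) and dendritic-marked cells (1333 CPM). The remaining cells had the highest level of Ace among the 4 classes, with 167 CPM against 30.5 in core cells, 28.6 in C1q-only and 15.1 in dendritic-marked cells. Ace, which encodes angiotensin-converting enzyme, and Adgre4 (239.7 CPM in the rest, 70.6 in core cells) are known from patrolling monocytes. Ace was at 399 CPM in the remaining cells of WT, 156 in YAPKO, 342 in TAZKO and 111 in DKO, and above every other class of the same library in all 4. Irf8, a transcription factor of the Xcr1-positive dendritic lineage, had 644 CPM in dendritic-marked cells and 182 in core cells. Within each of the 4 libraries, Plac8 was also higher in core cells and the rest than in the other classes, Adgre4 higher in the rest than in core cells, and Irf8 higher in dendritic-marked than in core cells.

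Antigen presentation genes split the classes as well. The class II gene H2-Aa had 2719 CPM in core cells, 8743 in C1q-only, 8317 in dendritic-marked and 6646 in remaining cells. Summed over core cells, TAZKO was lowest, with 109 CPM of H2-Aa against 2269.9 in WT, 3010.5 in YAPKO and 2664 in DKO, and with 647 CPM of its chaperone Cd74 against 7448, 7451 and 6648. These sums rest on part of the cells: the median core cell held 7.5 UMIs of H2-Aa, H2-Ab1 and H2-Eb1 together in WT, 16 in YAPKO, 0 in TAZKO and 15.5 in DKO. Of 8 measured genes of class II presentation and costimulation, 6 were at least 2-fold lower in the 24 TAZKO core cells than in WT core cells, with a median log2 ratio of -2.83. Of all 962 genes with at least 100 UMIs there, 48 were lower, but list counts in core cells used a lower minimum, so the sets of genes differ. Other markers moved in the same cells. Of 13 patrolling monocyte genes 8 were at least 2-fold higher and 0 lower (median 1.11). Of the 962 genes at the minimum of 100 UMIs, which is again another set, 33 were higher. NK cell markers summed to 527 CPM against 120 in WT core cells. Over all members, in which dendritic-marked cells are included, H2-Aa was 6016 CPM in WT, 6027 in YAPKO, 4630.3 in TAZKO and 6459 in DKO.

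**Figure D3:**
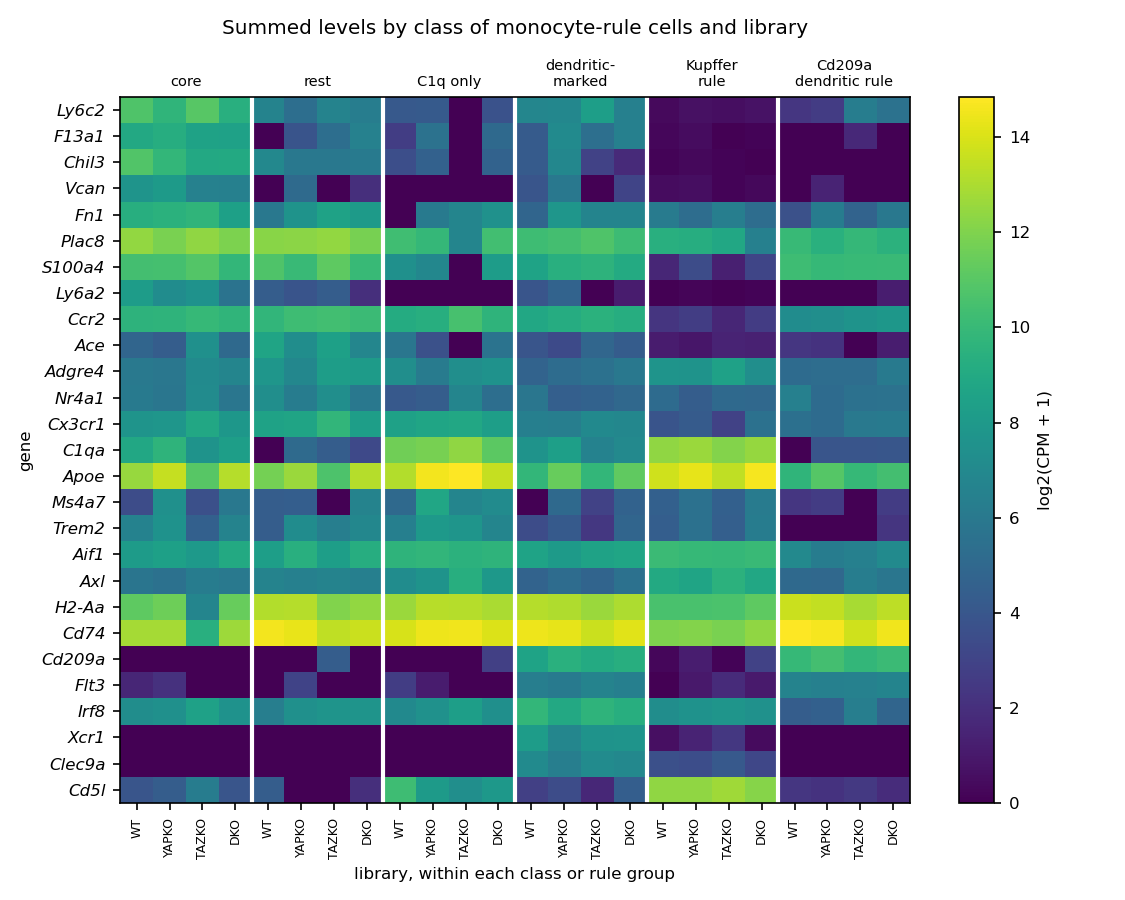
Summed levels, log2(CPM + 1), of selection and other genes in the 4 classes of monocyte-rule cells and in Kupffer-rule and Cd209a dendritic-rule cells, with 1 column per library. H2-Aa is at 109 CPM in core cells of TAZKO against 2269.9 to 3010.5 in the other libraries.

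Free RNA puts UMIs of some genes into cells that do not make them, and B cells (Cd79a, Cd79b and Ms4a1 at least 5 UMIs) were used to measure this. A Ly6c2 UMI was found in 59.8%, 52.9%, 53.9% and 37.0% of members in WT, YAPKO, TAZKO and DKO, and in 1.12%, 3.49%, 2.85% and 6.89% of B cells. Ly6c2 is a gene of the rule, so its share in members is partly set by the selection and only the B cell share is informative. The median depth of the B cells was 2979 UMIs in WT, 2916 in YAPKO, 2946 in TAZKO and 2263 in DKO. Thinning to 2000 UMIs left out 15, 24, 40 and 100 B cells and 2 DKO members. Ly6c2 was then seen in 41.2%, 35.4%, 40.8% and 18.4% of members and 0.693%, 1.84%, 1.97% and 6.84% of B cells. C1qa, which is not part of the rule, was seen in 22.7%, 29.1%, 10.5% and 21.7% of thinned members against 5.54%, 7.36%, 3.41% and 10.3% of thinned B cells. At least 5 C1q UMIs were carried by 2.90% of B cells in WT, 2.83% in YAPKO, 1.51% in TAZKO and 4.68% in DKO, against 23.7%, 36.2%, 9.21% and 32.1% of members, which were read more deeply. In TAZKO these intervals do not overlap (3.78% to 18.1% in members, 0.692% to 2.84% in B cells). After thinning those of TAZKO overlap for C1qa (4.66% to 19.7% and 2.07% to 5.28%) and C1qc (2.95% to 16.4% and 1.12% to 3.73%) but not for C1qb (4.66% to 19.7% and 0.864% to 3.28%).

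Among genes outside the rule, the members were set against 3573 Kupffer-rule cells of the same 4 libraries. Both groups were chosen on UMIs of the same cells, and the genes of both rules were left out. By edgeR's quasi-likelihood test on sums per library and group, 1886 of 12782 genes (14.8%) were higher in monocyte-rule cells and 1837 (14.4%) lower at an adjusted p under 0.05. The median log2 fold change over all genes tested was 0.01. Without WT the count of higher genes was 1162, and without dendritic-marked members it was 1147.

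Among classical monocyte genes, 16 of 18 rose and 1, Smpdl3a, fell, with a median log2 fold change of 3.33. S100a4, a calcium-binding protein of motile cells, had 804 CPM in WT, 943 in YAPKO, 1138 in TAZKO and 657 in DKO, against 1.44 to 9.98 CPM in Kupffer-rule cells (log2 fold change 7.64, SE 0.55, adjusted p = 9.92e-06, higher in 4 of 4 libraries). Cd177, a glycoprotein best known from neutrophils, had 14.4 to 23.5 CPM in the members and 0 UMIs in all Kupffer-rule cells, which makes it at least 242-fold higher at a floor of 3 UMIs over the group. Ly6a2 and Ly6i, relatives of Ly6c2, were also among the named genes, with log2 fold changes of 9.57 and 7.05, and so were Prtn3, Gpr141, Emb, Gpr183, Serpinb10 and Lmo1, with 6.66 to 7.28. Gpr183 encodes a receptor for oxysterols that guides immune cells, and Emb the adhesion protein embigin. Each of the 10 named genes on this side stayed higher without dendritic-marked members.

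Recruitment receptors and antigen presentation were higher too. The chemokine receptor genes Ccr1, Cx3cr1, Cxcr3 and Cxcr4 rose, although Cxcr3 turned to a log2 fold change of -0.27 without dendritic-marked members. Ccr1, a receptor for CCL3 and CCL5, had 61.6 CPM in WT, 113 in YAPKO, 10.1 in TAZKO and 64.7 in DKO against 1.56 to 8.51 CPM in Kupffer-rule cells (log2 fold change 3.94, SE 0.22, adjusted p = 2.20e-06, higher in 4 of 4 libraries). Of 11 genes of class II presentation and costimulation 8 rose, among them H2-Aa (log2 fold change 1.87, adjusted p = 1.05e-04), and Cd80 and Cd86, the ligands of CD28, fell. Dendritic cell markers moved with these counts, and 10 of 10 tested were higher. Without the dendritic-marked members 3 of these markers were called higher and 1 lower. Xcr1, Clec9a, Cd209a, Flt3 and Zbtb46 are then low by the definition of that class. The patrolling list was split, with 6 of 15 higher, such as Ace (log2 fold change 5.13, adjusted p = 1.30e-06), and 7 lower.

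Macrophage genes were lower than in Kupffer-rule cells: 17 of 20 fell and 1, Tmem176b, rose, with a median log2 fold change of -1.89. Axl, a receptor for apoptotic cells, had 58.4 CPM in WT, 70.3 in YAPKO, 60.3 in TAZKO and 98.9 in DKO, against 399.7 to 742 CPM in Kupffer-rule cells (log2 fold change -2.72, SE 0.20, adjusted p = 1.09e-05, lower in 4 of 4 libraries). All 9 Kupffer markers tested outside the rule were lower, with a median of -5.06, and the scavenger receptor Marco stood at 0 to 4.87 CPM against 285 to 1262. The named genes on this side were mostly absent from the members: Cd209f, Slc1a3, Naip1, Rims4, Tmem229a, Tmtc1, Tmem117 and Slc27a6 had 0 UMIs in all 4 libraries, which makes Slc1a3 at least 60.04-fold and Tmem117 at least 20.7-fold lower. Pcolce2 had 0 to 0.811 CPM in members and 199.6 to 335 CPM in Kupffer-rule cells (log2 fold change -9.24, SE 0.30, adjusted p = 5.21e-07, lower in 4 of 4 libraries), and Kcnj16, a potassium channel, was the tenth. Interferon-stimulated genes were mixed, with 3 of 26 higher and 10 lower with all members, and 5 higher and 3 lower without the dendritic-marked ones. Of 19 immediate early and stress genes 11 were higher and 2 lower, or 10 and 1 without the dendritic-marked members.

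Against 193 Cd209a-positive dendritic-rule cells, which excluded Xcr1 and Clec9a, the members showed the opposite side of their mixture. Cells that met the monocyte rule were kept out of the dendritic-rule group. Higher levels in the members of genes that go with the rule's markers or Lyz2 are thus partly set by the selection. By the same edgeR test, 372 of 7403 genes (5.02%) were higher and 337 (4.55%) lower in monocyte-rule cells, with a median log2 fold change of -0.01. Without DKO the counts were 224 and 200, with no library block 184 and 120, and with DESeq2 the count of lower genes was 218. Macrophage genes were then on the higher side, with 14 of 19 up and 1 down and a median of 1.51. Of 5 Kupffer markers 3 were higher too (median 1.36), and 4 without dendritic-marked members. Apoe was among the higher macrophage genes, with 4239 CPM in WT, 11107 in YAPKO, 2001 in TAZKO and 7329 in DKO, against 831 to 1993 CPM in the dendritic-rule cells (log2 fold change 2.02, SE 0.21, adjusted p = 2.51e-04, higher in 4 of 4 libraries).

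C1qa, C1qb and the lipid receptor gene Trem2 were among the named genes, with log2 fold changes of 5.66, 5.86 and 5.60. Clec4e and Clec4d, neighbouring genes for receptors of microbial glycolipids, were higher by 6.65 and 6.05, Lyz1 by 6.15 and the chemokine Ccl24 by 5.92 on the log2 scale. Gcsam, Cd177 and Arhgef37 had 0 UMIs in the dendritic-rule cells and were at least 15.8-fold, 12.4-fold and 11.5-fold higher. Of 12 genes of innate sensing 7 were higher and 0 lower, and of 26 interferon-stimulated genes 10 were higher and 0 lower, with medians of 0.81 and 0.74. The nucleic acid sensor family member Ifi204 had 252 CPM in WT, 376 in YAPKO, 207 in TAZKO and 272 in DKO against 16.1 to 64.5 CPM (log2 fold change 2.51, SE 0.23, adjusted p = 1.34e-04, higher in 4 of 4 libraries).

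The dendritic rule asks for at least 20 UMIs of H2-Aa, H2-Ab1 and Cd74, which were not tested, so that higher levels of other class II genes in these cells are partly set by their selection. Lower in the members were 5 of 7 tested genes of class II presentation, including the peptide-loading genes H2-DMa, H2-DMb1 and H2-DMb2 and the class II transactivator Ciita. H2-Oa, which restrains peptide loading, had 83.5 CPM in WT, 54.6 in YAPKO, 60.3 in TAZKO and 49.0 in DKO against 203 to 402 CPM (log2 fold change -2.51, SE 0.19, adjusted p = 6.27e-05, lower in 4 of 4 libraries). The named genes Ffar2, Ltb, Cd7, Klra17, Bex6, Siglecg, H2-DMb2, Traf1 and Pik3ip1 were lower, with log2 fold changes of -4.89 to -2.39. Cell division genes were lower for 7 of 12 (median -1.04). Wwtr1 had 8.03, 17.6, 4.61 and 6.58 CPM in dendritic-rule cells of WT, YAPKO, TAZKO and DKO, and was called higher in the members (log2 fold change 1.43, SE 0.37, adjusted p = 0.0391, higher in 4 of 4 libraries), a call lost without WT, TAZKO or DKO, with no library block and with DESeq2. Without dendritic-marked members Wwtr1 was not tested.

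Gpnmb-positive macrophages were compared in YAPKO (72 cells) and DKO (33 cells), because WT held 0 and TAZKO 6 of them. They were selected on at least 3 UMIs of Gpnmb, where the members have 0. Differences in genes that go with Gpnmb, such as lipid-associated macrophage genes, are thus partly set by the selection. With these 2 libraries edgeR called 43 of 9992 genes (0.43%) higher and 85 (0.851%) lower in monocyte-rule cells, with a median log2 fold change of 0.02. Without a term for the library the test called 0 genes, where 1296 genes had an unadjusted p under 0.05 and DESeq2, with that term, called 156. Of 18 classical monocyte genes 9 were higher and 0 lower (median 1.56), of 20 macrophage genes 0 were higher and 9 lower (median -1.38), and of 11 lipid-associated macrophage genes 0 were higher and 8 lower (median -3.04). Cd63 and Ctsd were among the lower genes of both macrophage lists, so that these counts overlap. Without dendritic-marked members 7 classical genes were higher, and 5 macrophage and 7 lipid-associated genes were lower. Kupffer markers moved with these lists, with 4 of 8 lower (median -1.80) and 3 without those members. Of 10 dendritic markers 3 were higher, Flt3, Xcr1 and Clec9a, which define the marked members, and 0 were lower. Spp1, which encodes osteopontin, had 104 CPM in the YAPKO members and 7.64 in those of DKO, against 2062 and 369.9 CPM in Gpnmb-positive cells (log2 fold change -4.97, SE 0.32, adjusted p = 0.017, lower in 2 of 2 libraries). Fabp5, a fatty acid carrier, had 322 and 180.2 CPM against 3994 and 1889 (log2 fold change -3.64, SE 0.26, adjusted p = 0.017, lower in 2 of 2 libraries).

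Other named genes on the lower side were the matrix protease Mmp12, with a log2 fold change of -6.14, and Syngr1, Cd63, Pld3, F7, Gdf15, Hal, Hpgds and Lpl, with -5.30 to -3.17. On the higher side stood Cxcl10, Ly6a2, Tppp3, Naaa, Rnase6, Plac8, Mcemp1 and Dna2, with 3.17 to 4.87, and Ccl17, with 0 UMIs in Gpnmb-positive cells, at least 17.9-fold higher. Without dendritic-marked members 12 genes were called higher and 28 lower, and Ccl17 was not tested. Tppp3, Naaa, Rnase6, Dna2, F7, Hal and Lpl then no longer passed the threshold, with adjusted p of 0.0511 to 0.105. Their log2 fold changes went from 3.77 to 3.96 for Tppp3, 3.51 to 2.20 for Naaa, 3.47 to 2.53 for Rnase6, 3.17 to 2.95 for Dna2, -3.27 to -2.88 for F7, -3.19 to -2.67 for Hal and -3.17 to -2.76 for Lpl.

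The range within the members was examined by splitting them at C1q, which was not part of the rule. C1q-high cells (at least 5 UMIs of C1qa, C1qb and C1qc, which lie side by side on chromosome 4 from 136880129 to 136898803) numbered 23 in WT, 137 in YAPKO, 7 in TAZKO and 79 in DKO. C1q-low cells (at most 1 UMI) numbered 72, 203, 67 and 157, and 52 cells between were left out. Both classes were selected on a readout of the same cells, so the C1q genes and the rule's genes were not tested. edgeR called 398 of 7755 genes (5.13%) higher and 435 (5.61%) lower in C1q-high cells, with a median log2 fold change of -0.00. The counts were 116 and 133 without YAPKO, 264 and 270 without DKO, and 164 and 248 without dendritic-marked members.

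Along this range the classical and macrophage lists moved in opposite directions. Of 18 classical monocyte genes 0 rose and 13 fell in C1q-high cells (median -1.33), and of 17 macrophage genes 16 rose and 0 fell (median 1.60), or 12 and 0 without dendritic-marked members. S100a6, a calcium-binding protein, had 743, 942, 793 and 751 CPM in the C1q-high cells of WT, YAPKO, TAZKO and DKO, and 2167, 2689.7, 2342 and 1636 CPM in the C1q-low cells (log2 fold change -1.49, SE 0.10, adjusted p = 1.42e-06, lower in 4 of 4 libraries). The libraries did not overlap between the classes for S100a6. Apoe, which carries lipids out of macrophages, had 13500.0, 24030.0, 14895 and 11239 CPM in the C1q-high cells of WT, YAPKO, TAZKO and DKO, against 1121, 2213, 1068 and 5128 CPM (log2 fold change 2.94, SE 0.33, adjusted p = 6.08e-05, higher in 4 of 4 libraries).

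Ms4a7, a membrane protein of tissue macrophages (chromosome 19, 11321039 to 11336146), was at 35.7, 389, 83.4 and 125 CPM in C1q-high and 1.11, 18.1, 4.77 and 41.3 CPM in C1q-low cells (log2 fold change 3.19, SE 0.44, adjusted p = 3.29e-04, higher in 4 of 4 libraries). The receptors for dying cells Axl and Mertk were higher by 2.45 and 1.75, the lipid-sensing nuclear receptor gene Nr1h3 by 1.99 and the transcription factor gene Maf by 1.30 on the log2 scale, each in 4 of 4 libraries. Lipid-associated macrophage genes were higher for 7 of 10, of which Cd63, Ctsd and Ctsl are also on the macrophage list, and lower for 1, Lgals3 (median 1.25). Fc and complement receptors were higher for 6 of 10 and lower for 1, Itgam. Without dendritic-marked members 3 genes of either list were higher. Fcgr4, a receptor for IgG, was among the 6 (log2 fold change 2.20, SE 0.19, adjusted p = 7.99e-06, higher in 4 of 4 libraries). Further named genes were Bank1, Fabp7, Lilra5, Rgs1, Hpgds, Abcc3, Siglec1 and Ltc4s, with 2.85 to 3.92; Fabp7, Siglec1 and Ltc4s were not tested without dendritic-marked members. Hpgds and Ltc4s make lipid mediators, a prostaglandin and a leukotriene.

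Stress genes and markers of other cell types moved with this split. Of 18 immediate early and stress genes 0 were higher and 7 lower in C1q-high cells, and 3 were lower without dendritic-marked members. All 6 Kupffer markers tested were higher in C1q-high cells (median 2.21), and 4 without dendritic-marked members. Cd5l had 740.1 CPM in WT, 141 in YAPKO, 313 in TAZKO and 178 in DKO against 3.18 to 5.91 CPM in C1q-low cells (log2 fold change 5.63), while Kupffer-rule cells held 5264, 5424, 6926 and 4506 CPM. Endothelial markers were higher for 9 of 13, and for 0 once dendritic-marked members were left out. Dendritic markers were lower for 5 of 9, of which Cd209a, Flt3, Xcr1 and Clec9a define the marked members. Several named genes on the lower side were no longer tested without these cells, namely Gcsam, Btla, Mycl, Cd24a, Itgae, Gpr141b and Lmo1, while Prtn3, Pglyrp1 and Serpinb10 stayed lower. Class II genes changed with the same choice: 1 of 10 was higher with all members and 6 without the marked ones, when H2-Aa reached a log2 fold change of 1.63 (adjusted p = 4.84e-05). The part of Kupffer, endothelial and dendritic RNA in the C1q range was not tested further.

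**Figure D4:**
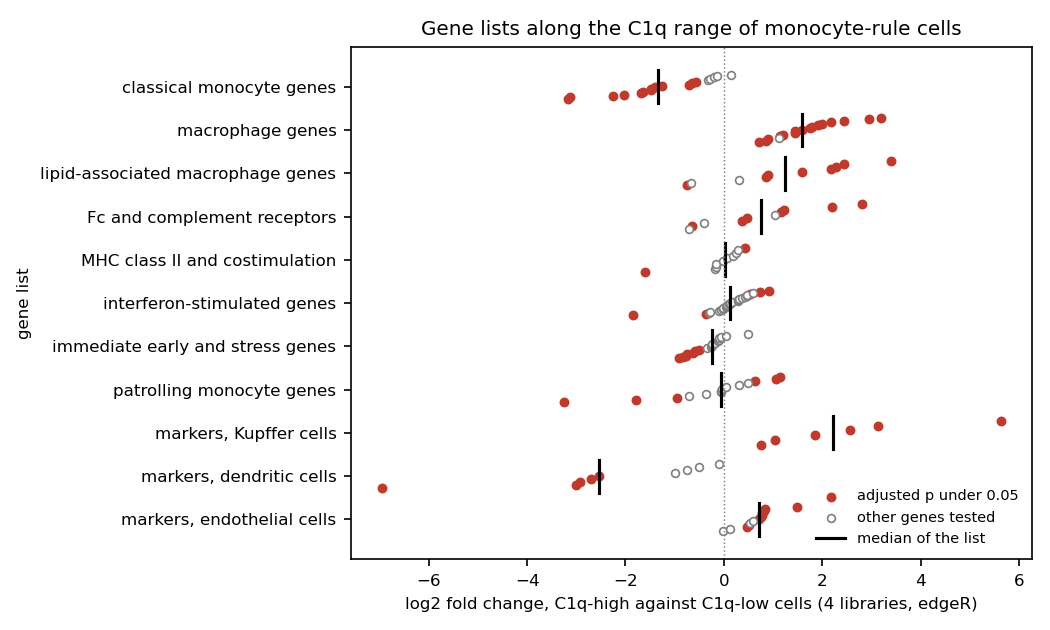
Log2 fold change of list genes between C1q-high and C1q-low monocyte-rule cells (edgeR, 4 libraries); each point is a gene, filled where the adjusted p is under 0.05, and bars are list medians. Classical monocyte genes have a median of -1.33 and macrophage genes of 1.60.

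Between libraries, levels were compared as ratios to the WT members, with no test because each genotype has 1 mouse. All 3 comparisons share the WT members as control. In YAPKO, 253 of 6577 genes with at least 100 UMIs in both libraries together (3.85%) were at least 2-fold higher and 109 (1.66%) at least 2-fold lower, and the median log2 ratio was 0.08. Macrophage genes were higher for 8 of 20 and lower for 0, with a median of 0.74. In the core cells alone the count was also 8 of 20, with a median of 0.97. Of all 4148 genes with at least 100 UMIs there, 270 were higher, but the list was counted at a lower minimum, so the sets of genes differ. Lipid-associated macrophage genes were higher for 6 of 10 and lower for 0 (median 1.31), and in core cells for 4 of 10 (median 0.79). Over all members, Cd63, Ctsd and Ctsl were among the higher genes of both lists, so that these counts overlap.

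Apoe (chromosome 7, 19696109 to 19699188) had 4239 CPM in WT, 11107 in YAPKO, 2001 in TAZKO and 7329 in DKO. Relative to WT members, Apoe had a log2 ratio of 1.39 (1.35 to 1.43) in YAPKO, -1.08 in TAZKO and 0.79 (0.74 to 0.84) in DKO. Free RNA of this gene was plentiful, with 3229.7, 2954, 1724 and 5843 CPM in B cells, which were read less deeply. With the limits read as UMIs, which leaves 7 YAPKO and 4 WT members, the ratio in YAPKO was -1.89. Ctsd, which encodes the lysosomal protease cathepsin D, had 256 CPM in WT, 784 in YAPKO, 136 in TAZKO and 418 in DKO, with 214, 204, 109 and 323 CPM in B cells.

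Ms4a7 was a named gene of YAPKO, with 9.73 CPM in WT, 169 in YAPKO, 10.1 in TAZKO and 70.6 in DKO. Its UMIs came from 6, 100, 4 and 67 cells in this order, and the log2 ratio was 4.12 (3.31 to 5.08) in YAPKO, 0.05 (-1.54 to 1.51) in TAZKO and 2.86 (2.01 to 3.84) in DKO. B cells held 1.61, 7.10, 1.33 and 39.0 CPM of Ms4a7. Thbs1, which encodes the matrix protein thrombospondin 1, was the 1 of 18 classical genes that was at least 2-fold higher in YAPKO, with 18.7 CPM in WT, 83.3 in YAPKO, 1.44 in TAZKO and 75.5 in DKO. The libraries with the Yap deletion thus were both high and the others low for Ms4a7 and Thbs1. The classical list as a whole had a median of 0.11 in YAPKO, which turned to -0.23 in core cells.

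The other named genes higher in YAPKO were few in UMIs. Ccn2, a target of YAP that encodes connective tissue growth factor, was at 33.1 CPM in YAPKO from 30 cells, with 28 of 164 UMIs in the top cell, against 4.87 CPM in WT, 1.44 in TAZKO and 14.4 in DKO. The melanoma cell adhesion gene Mcam (23.6 CPM from 60 cells against 2.43 in WT), the connexin 43 gene Gja1 (35.2 from 65 cells against 4.87) and Armcx4 (54.0 from 72 cells against 8.92) completed this set with Mup9. Mup9, a hepatocyte gene, had 0 UMIs in WT members and 38.6 CPM in YAPKO, but 127 CPM in YAPKO B cells. Endothelial markers moved with these values, with a summed level of 2108 CPM in WT, 4349 in YAPKO, 2175 in TAZKO and 4491 in DKO and Fcgr2b or Igfbp7 as the most abundant gene. The part of endothelial RNA in these genes was not tested.

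Genes of cell division were lower in YAPKO for 9 of 11 measured and higher for 0 (median -2.18), beside 1.66% of all genes. In core cells 9 of 12 were lower (median -1.26), counted at a lower minimum of UMIs than the 4148 genes there, of which 65 were lower. Stmn1, which encodes the microtubule regulator stathmin, had 362 CPM in WT, 78.8 in YAPKO, 159 in TAZKO and 83.1 in DKO, from 26, 72, 10 and 32 cells. At least 3 UMIs of Top2a or Mki67 were carried by 13 of 97 members in WT (13.4%, 7.33 to 21.8), 10 of 378 in YAPKO (2.65%, 1.28 to 4.81), 6 of 76 in TAZKO (7.89%, 2.95 to 16.4) and 5 of 246 in DKO (2.03%, 0.663 to 4.68). In DKO 7 of 9 measured division genes were lower (median -2.12) and in TAZKO 3 of 9 (median -0.80), with 0 higher in either, beside 1.75% and 2.99% of all genes. In core cells, at that lower minimum, the counts were 5 of 7 in DKO (median -3.49) and 4 of 7 in TAZKO (median -1.81). Among all genes with at least 100 UMIs there, 34 of 1633 were lower in DKO and 48 of 962 in TAZKO, which is not the same set of genes.

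A set of granule genes was high in the WT members and rested on few cells. Elane (ENSMUSG00000020125) and Prtn3 (ENSMUSG00000057729), neighbours on chromosome 10, and Ctsg encode the serine proteases neutrophil elastase, proteinase 3 and cathepsin G, and Mpo encodes myeloperoxidase, all stored in the primary granules that myeloid precursors fill. Elane had 1349 UMIs in WT members from 3 cells, of which 921 were in a single cell, 109 in YAPKO, 31 in TAZKO and 1 in DKO. Prtn3 had 1194 UMIs from 12 WT cells (744 in the top cell), 265 in YAPKO from 36 cells, 94 in TAZKO from 2 cells and 21 in DKO from 11 cells. Mpo had 713 UMIs from 3 WT cells and Ctsg 437 from 5. In B cells Elane and Ctsg had 0 UMIs in every library. The 3 WT cells with Elane all held Prtn3, Mpo and Ctsg as well and lay in the core class, and so did 3 cells of YAPKO and 1 of TAZKO. In core cells Elane reached 2705 CPM in WT, against 44.8 in YAPKO, 178 in TAZKO and 0 in DKO.

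The log2 ratio of Elane to WT was -5.63 (-5.93 to -5.35) in YAPKO, -4.62 (-5.18 to -4.11) in TAZKO and -11.25 (-16.55 to -8.77) in DKO. Ms4a3, a gene of granulocyte and monocyte precursors, had 132 UMIs in 2 WT cells, 5 in YAPKO, and 0 in TAZKO and DKO. Elane, Ctsg and Ms4a3 were among the 6 named lower genes of all 3 libraries, Mpo of YAPKO and DKO, and Prtn3 of TAZKO and DKO. Retnla, which encodes the secreted protein RELM alpha, was named in YAPKO and TAZKO, and all its 742 WT UMIs were in 1 cell. Because the promoters of Elane, Prtn3 and Mpo belong to genes that were seen together in these few cells, they are shown here from RefSeq, 5′ to 3′ on the gene's strand (GRCm38.p6, +). They lie at chr10:79886062-79886361, chr10:79879417-79879716 and chr11:87793534-87793833. By the gene coordinates used elsewhere in this text, the windows of Elane and Mpo span the start of the gene (79886247 and 87793581). That of Prtn3 lies within the gene (79874476 to 79883174). Capitals mark GAGGAA or its reverse complement, the core letters bound by PU.1, a factor of the myeloid lineage.
Elane: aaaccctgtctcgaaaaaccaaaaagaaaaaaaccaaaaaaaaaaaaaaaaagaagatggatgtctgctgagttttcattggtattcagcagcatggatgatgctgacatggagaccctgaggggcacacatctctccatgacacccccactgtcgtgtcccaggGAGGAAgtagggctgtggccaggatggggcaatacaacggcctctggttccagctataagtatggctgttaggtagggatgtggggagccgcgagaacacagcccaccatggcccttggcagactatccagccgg
Prtn3: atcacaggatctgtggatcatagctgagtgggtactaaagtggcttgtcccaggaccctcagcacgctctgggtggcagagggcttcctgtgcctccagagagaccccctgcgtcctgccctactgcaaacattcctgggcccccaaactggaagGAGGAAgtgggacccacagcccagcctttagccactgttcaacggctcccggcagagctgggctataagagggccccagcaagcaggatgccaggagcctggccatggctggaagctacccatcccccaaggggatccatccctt
Mpo: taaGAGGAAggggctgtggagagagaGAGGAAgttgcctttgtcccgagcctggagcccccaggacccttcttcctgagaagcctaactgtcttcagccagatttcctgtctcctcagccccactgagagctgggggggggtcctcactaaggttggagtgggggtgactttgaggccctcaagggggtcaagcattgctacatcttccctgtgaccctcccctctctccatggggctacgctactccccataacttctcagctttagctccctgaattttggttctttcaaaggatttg
The letters occur 1 time in the promoters of Elane, Prtn3 and Ctsg and 2 times in that of Mpo, on either strand, and 28.3% of 32851 mouse promoters of the same 300 bases hold them. The core letters TTGCNNAA of C/EBP factors occur in none of these 4 windows and in 10.8% of all promoters. A match of so few letters is a description and no binding site.

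Heat shock genes were low in YAPKO against WT in members and B cells alike. Hspa1a, which encodes the heat-inducible chaperone HSP70 (chromosome 17, 34969190 to 34972156), had 496 CPM in WT, 16.8 in YAPKO, 148 in TAZKO and 77.8 in DKO among members. B cells were also highest in WT and lowest in YAPKO, with 202, 3.55, 26.6 and 26.0 CPM of Hspa1a, so that the difference is not particular to the members. The list of immediate early and stress genes had a median of -0.01 in YAPKO, with 1 of 18 higher, Ier3, and 2 lower, Hspa1a and Hspa1b. The list median was 0.45 in DKO, where Fosb, Ier3 and Zfp36 were at least 2-fold higher and Hspa1a and Hspa1b lower.

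In TAZKO, 96 of 2879 genes (3.33%) were at least 2-fold higher and 86 (2.99%) at least 2-fold lower, with a median log2 ratio of 0.03. These counts rest on 76 members, and without dendritic-marked members 59 of 1441 genes were higher. Macrophage genes were lower for 4 of 17, C1qa, C1qb, C1qc and Apoe, and higher for 0 (median -0.54). C1qa had 739.8 CPM in WT, 1109.8 in YAPKO, 253 in TAZKO and 613 in DKO, with 446, 561, 108 and 472 CPM in B cells. Of 5 measured genes of innate sensing 1, Cd14, was lower and 0 were higher (median -0.76). In core cells, with 11 measured, 1 was higher and 2 were lower (median -0.19). In the list of Fc and complement receptors 1 of 7 genes was higher, C3, which is not a receptor, and 0 were lower (median 0.23). The median of that list turned to -0.18 in core cells, with 1 of 10 higher and 2 lower. Cd14, the coreceptor for lipopolysaccharide, had 153 CPM in WT, 281 in YAPKO, 33.0 in TAZKO and 131 in DKO. The log2 ratio of Cd14 in TAZKO was -2.21 (-2.91 to -1.59) over all members and -2.29 in core cells.

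Ifi44, an interferon-stimulated gene (chromosome 3, 151730922 to 151749960), stood out in TAZKO, with 28.4 CPM in WT, 47.9 in YAPKO, 350.3 in TAZKO and 23.8 in DKO. It was seen in 56 of 76 TAZKO members and in 21, 84 and 28 members of WT, YAPKO and DKO, and the log2 ratio was 3.63 (3.11 to 4.18) in TAZKO, 0.75 (0.24 to 1.31) in YAPKO and -0.25 (-0.90 to 0.41) in DKO. B cells of TAZKO held 38.1 CPM of Ifi44 against 11.2 to 20.2 in the other libraries, and Kupffer-rule cells of TAZKO 492 CPM against 43.5 to 61.7. The gene was thus high in more than 1 cell type of that library. The interferon-stimulated list did not follow: 1 of 16 measured genes was higher, Ifi44 itself, and 0 were lower (median -0.29).

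Cxcl9 and Gbp2b, genes induced by interferon gamma, were also named in TAZKO. Cxcl9 (chromosome 5, 92321347 to 92328079), which attracts T cells, had 24.3 CPM in WT, 35.4 in YAPKO, 841 in TAZKO and 113 in DKO. In TAZKO the 586 UMIs of Cxcl9 came from 15 cells, with 132 in the top cell. Gbp2b had 13.8, 16.6, 132 and 3.15 CPM, and the TAZKO UMIs came from 19 cells. NK cell markers were also highest in TAZKO members, with a summed level of 157 CPM in WT, 18.6 in YAPKO, 527 in TAZKO and 52.1 in DKO, and Ccl5 was the most abundant of them. The lipid genes Scd1, Scd2 and Apob completed the set, and Scd1 had 31.6 CPM in WT, 54.8 in YAPKO, 449 in TAZKO and 113 in DKO among members and 389.6, 281, 1316 and 366 CPM in B cells. H2ac8, a histone gene, was among the lower genes, with 382 CPM in WT, 47.5 in YAPKO, 50.3 in TAZKO and 42.2 in DKO.

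**Figure D5:**
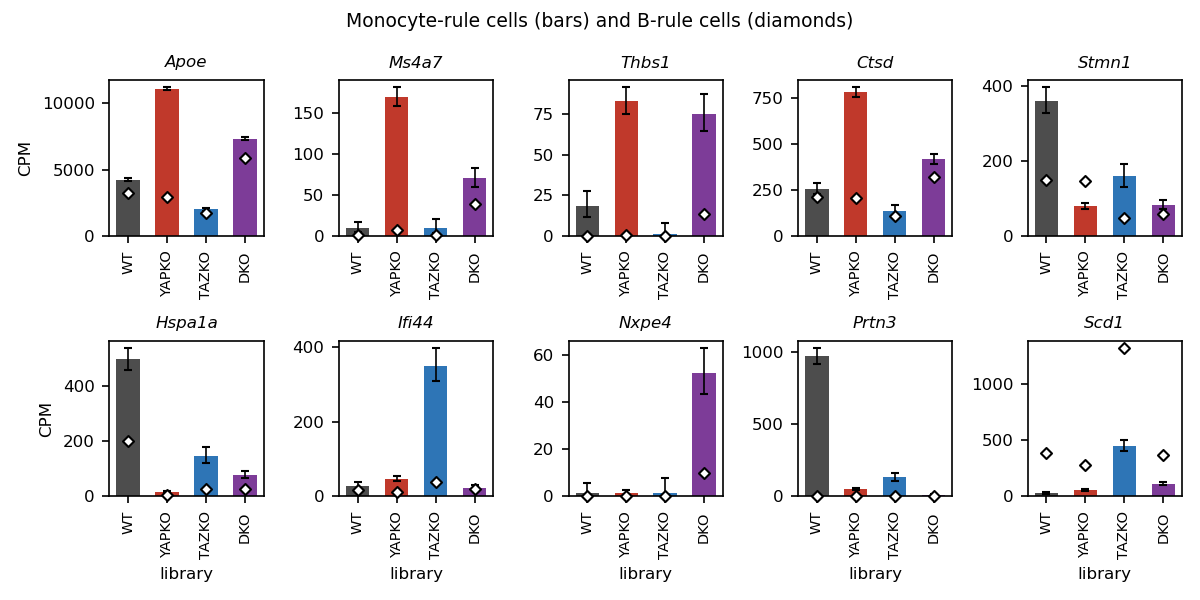
Levels (CPM) in monocyte-rule cells of each library, as bars with exact 95% intervals for counting error, and in B cells, as diamonds. Apoe is highest in YAPKO (11107 CPM), Ifi44 in TAZKO (350.3 CPM) and Nxpe4 in DKO (52.6 CPM), and Scd1 is higher in B cells than in members of every library.

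In DKO, 289 of 4795 genes (6.03%) were at least 2-fold higher and 84 (1.75%) at least 2-fold lower, with a median log2 ratio of 0.10. Macrophage genes were higher for 3 of 20, including Ms4a7 and Ctsl, and lower for 0 (median 0.47). In core cells 6 of 20 were higher and 0 lower (median 0.64). Of all 1633 genes with at least 100 UMIs there, 134 were higher, but the list was counted at a lower minimum. The cathepsin L gene Ctsl had 187 CPM in WT, 443 in YAPKO, 102 in TAZKO and 458 in DKO, with 152, 98.9, 107 and 333 CPM in B cells. Genes of glycolysis and hypoxia were higher for 4 of 10, including Hif1a, the oxygen-regulated transcription factor, and Hk2, the hexokinase of activated cells, although the list median was 0.02. Hif1a had 61.6 CPM in WT, 143 in YAPKO, 112 in TAZKO and 139 in DKO, with 53.7, 54.8, 80.2 and 68.3 CPM in B cells. Of 17 classical genes measured in DKO, 2 were lower, including Ly6a2, and 1 was higher, Thbs1 (median -0.29).

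Nxpe4 (ENSMUSG00000044229, chromosome 9, 48162023 to 48400025), whose function is not known, had 2 UMIs in WT members, 7 in YAPKO, 1 in TAZKO and 117 in DKO. The DKO UMIs were spread over 85 of 246 members with at most 3 in any cell, and the log2 ratio of Nxpe4 was 5.02 (3.13 to 8.08). All 4 classes of DKO members held it, with 67.7 CPM in core cells, 56.9 in C1q-only, 21.7 in dendritic-marked and 96.7 in remaining cells, and DKO B cells had 9.76 CPM of Nxpe4 where the other libraries had 0. Ccl17, a chemokine of dendritic cells, had 149 UMIs in 5 DKO cells, 109 of them in a single cell, and 0 in DKO core cells. Mat1a, Plg, Cps1 and Cib3 completed the set. Hepatocyte genes such as Cps1, with 15.4 CPM in WT, 11.7 in YAPKO, 83.3 in TAZKO and 131 in DKO, were higher still in B cells, with 64.4, 22.8, 198 and 155 CPM of Cps1.

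The summed level of 34 hepatocyte markers in the members was 7840 CPM in WT, 4127 in YAPKO, 9169 in TAZKO and 14254 in DKO, against 36968, 10588, 24709 and 33832 CPM in B cells, with Mup20 or Alb as the most abundant gene. Saa3, an acute phase gene, was the sixth named lower gene in DKO, with 130 UMIs in 4 WT cells, 98 of them in the top cell, and 7 in DKO. In YAPKO its log2 ratio of -1.45 turned to 0.10 without the top cell of each library. Of 13 neutrophil markers, Camp, Ngp and Ltf had 0 UMIs in the members of all 4 libraries. The whole list, of which the rule limits S100a8 and S100a9, summed to 135 CPM in WT, 349 in YAPKO, 54.6 in TAZKO and 213 in DKO, against 307, 380.0, 109 and 611 CPM in core cells and 632, 564, 29.7 and 143 CPM in B cells.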

How the data were processed

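Single-cell RNA was read from 4 mouse liver libraries, 1 mouse per genotype. The counts are UMIs per gene and barcode as the authors deposited them, made with Cell Ranger 6.0.1 against mm10 according to the submitters' processing notes. The matrices list 55488 genes. Depth was 66259687 UMIs in WT, 85989454 in YAPKO, 49022089 in TAZKO and 77411746 in DKO, and the members held 1232804, 4947957, 696501 and 2225056 of these UMIs. Cells were selected with Python 3.11.15, numpy 2.4.6, pandas 2.3.3 and scipy 1.17.1, doublets were scored by Scrublet (scanpy 1.11.5), and figures were drawn with matplotlib 3.10.9. Members and gene lists were chosen with earlier results of these data known.

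Shares have exact Clopper-Pearson 95% intervals and CPM exact Poisson intervals. Ratios to WT have exact conditional intervals, and were taken for genes with at least 100 UMIs in the 2 libraries together, with no test. List counts in core cells used a lower minimum than the counts of all genes there. Between groups of cells, every p comes from edgeR 4.0.16 in R 4.3.3: its quasi-likelihood test on UMIs summed per library and group, with the library as a block, TMM scaling, filterByExpr and Benjamini-Hochberg adjustment over genes, at a threshold of 0.05. The fit against Kupffer-rule cells was checked on simulated data with a chosen spread, where 200 of 12486 genes were changed. It found 86% of the 4-fold and 23% of the 2-fold changes, and 4.39% of its calls were false. A gene that was not called can thus differ 2-fold. The other fits were not checked in this way.

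Named genes follow a rule set in advance: they are the 6 per direction with the most extreme ratio of each library to WT among those whose interval leaves out 0. Between groups they are the 10 per direction with the largest fold change among genes past the threshold with at least 100 UMIs and 1 direction in every library fitted. Mitochondrial, ribosomal and unnamed genes, markers of other cell types and genes of the selection rules were left out. Other genes belong to lists written beforehand, and which of them to name was chosen after their values were seen. A library with under 20 cells of a group was left out of the fits between cell types. The fit of the C1q classes kept all 4 libraries, with 7 C1q-high cells in TAZKO. The alternatives were limits read as UMIs, mitochondrial, marker and S100 limits, thinning, doublet removal, scaling, UMI minimums, DESeq2 1.42.0, no filter, no block and leaving out libraries. A few genes of the lists and of the named set are not reported here.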

Additional observations from a re-analysis of the deposited data

How the results depend on the processing

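Among tested genes named in the report or held in its lists, 528 of 532 calls between groups kept their direction and their side of the threshold with RLE size factors, and 524 with no filter beyond 1 UMI. With DESeq2 465 did, and with no library block 301. Without dendritic-marked members 373 did, while 111 were weaker and 6 reversed, and without YAPKO 366 did and 102 were weaker. Of 140 ratios to WT, 139 stayed within their interval under median-ratio scaling. Without the top 8% of doublet scores 86 did and 36 moved, without dendritic-marked members 66 did and 46 moved, and in core cells 43 did, 42 moved and 1 reversed. Where members or a library were left out, the others were not measured or tested.

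Shares moved with the rule, in the order WT, YAPKO, TAZKO and DKO. With limits read as UMIs they were 0.0387%, 0.214%, 0.106% and 1.46%; with a marker sum of at least 8, 1.05%, 4.96%, 0.590% and 1.89%; thinned to 2000 UMIs, 0.617%, 2.65%, 0.393% and 0.678%. With a marker sum of at least 3 YAPKO had 6.79% and DKO 3.89%, and without the top 8% of doublet scores YAPKO had 5.32%. Members with such scores were 10.3%, 18.8%, 17.1% and 7.32%, against 7.35% to 8% of kept cells. Some alternatives were chosen after seeing the data. Without members carrying dendritic cell markers the shares were 0.922%, 4.48%, 0.405% and 2.09%, and for core cells 0.671%, 3.27%, 0.278% and 0.820%.

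Counts of genes at least 2-fold higher and lower than WT were, with limits read as UMIs and so few members, 5 and 4 in YAPKO, 9 and 8 in TAZKO and 57 and 23 in DKO. With a minimum of 20 UMIs they were 684 and 519, 659 and 356, and 1019 and 367. In core cells 65 were lower in YAPKO, 33 and 48 of 962 were higher and lower in TAZKO, and 134 and 34 in DKO. Without dendritic-marked members 59 were higher in TAZKO, and without the top cell of each gene 390 were higher and 68 lower in YAPKO.

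Between groups, no filter beyond 1 UMI gave 2808 genes lower than in Kupffer-rule cells, 779 higher and 573 lower against dendritic-rule cells, and 456 and 330 against Gpnmb-positive cells. DESeq2 gave 218 lower against dendritic-rule cells, and 234 and 249 for the C1q classes. With no library block the counts were 184 and 120 against dendritic-rule cells, 159 and 161 for the C1q classes, and 0 and 0 by edgeR against Gpnmb-positive cells, where 1296 genes had an unadjusted p under 0.05 and DESeq2 with the block called 156. Without dendritic-marked members 1147 were higher than in Kupffer-rule cells, 12 and 28 were higher and lower against Gpnmb-positive cells, and 164 and 248 for the C1q classes. Leaving out 1 library at a time gave 1162 to 1563 higher and 1296 to 1668 lower against Kupffer-rule cells, 224 to 373 and 200 to 313 against dendritic-rule cells, and 116 to 431 and 133 to 456 for the C1q classes. It was not run for Gpnmb-positive cells, which were fitted in 2 libraries.

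Some genes changed sign. With limits read as UMIs, Apoe in YAPKO was at -1.89 and Maf in DKO at -0.24. Saa3 in YAPKO was at 0.32 with a marker sum of at least 8 and at 0.10 without its top cell, and Ly6a in DKO core cells at 0.58. Without dendritic-marked members, Clec9a has 0 UMIs by the definition of that class, so that its -8.89 against Kupffer-rule cells is no result, and Zbtb46, at -1.11, is part of the definition too. Cxcr3 was then at -0.27 and Id2 at -0.38 against Kupffer-rule cells, and Fcer1g at -0.027 and Id2 at 0.32 between the C1q classes. For other changes, the cause was not tested. With 1 mouse per genotype, a difference between libraries cannot be told apart from one between mice or preparations.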
